A study of Homo sapiens with 4 samples.

Results

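The genes described here encode the subunits of ligand-gated and G protein-coupled receptors for glutamate, GABA, glycine and acetylcholine (nicotinic type). They were chosen by the pattern of their gene symbols alone (the GRIA, GRIK, GRID, GRIN, GRM, GABR, GABBR, GLR and CHRN families), and 64 of the 18132 genes measured matched. Of these, 61 encode a receptor subunit. The other 3 matched by spelling only: GRID2IP, which encodes a protein that interacts with a delta glutamate receptor, and the antisense RNA genes GRIK1-AS1 and GRIK1-AS2. Levels were measured on 4 human PrimeView arrays hybridised with RNA from U87MG, an established human glioblastoma cell line kept at 0.2% oxygen. Cells of 2 samples had received a control vector, named PCMV in the labels. Cells of the other 2 had received an expression vector for NeuroD2, and all were harvested 48 hours after transfection. The labels call the 2 samples of each group biological replicates and do not describe separate cultures, so the p-values reflect the spread between these samples, which may be technical.

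Ionotropic receptors are ion channels built from several subunits that open when transmitter binds: AMPA, kainate and NMDA receptors pass cations and excite neurons, while GABA-A and glycine receptors pass chloride and mostly inhibit them. Metabotropic glutamate receptors and GABA-B receptors signal through G proteins. Nicotinic receptors are acetylcholine-gated cation channels of neurons, sensory cells and the muscle endplate. NeuroD2 is a neurogenic transcription factor that binds DNA at E-boxes as a dimer with E proteins, and many of these receptors are hallmarks of the neurons in which it acts.

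The overexpressed gene was read at 5.46 and 5.35 on the control arrays and at 7.37 and 7.82 on the NeuroD2 arrays (log2 levels on the brightest of its probe sets). NEUROD2 thus rose by 2.19 on the log2 scale (standard error 0.15, limma adjusted p = 0.0044), though its other 2 probe sets differed by -0.21 and -0.07. With a single control array left the limma adjusted p was 0.141 (control replicate 1 omitted) or 0.147 (control replicate 2 omitted). In RNA of whole cultures, fewer cells with a transcript and less of it per cell cannot be told apart. Mean levels of 5 mesenchymal glioma markers ran from 11.26 to 14.14, and 1 of them, FN1, fell (-0.63, limma adjusted p = 0.0318). Those of 5 astrocyte markers ran from 3.30 (AQP4) to 12.53 (GJA1), of 4 oligodendrocyte-lineage markers from 4.83 to 6.76, of 4 microglia and leukocyte markers from 3.29 to 6.07 and of 3 endothelial markers from 4.21 to 5.71. The 6 neuron markers ran from 3.74 (ELAVL4) to 10.93 (TUBB3), and 1, SNAP25, fell (-0.59, limma adjusted p = 0.0312).

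Control RNAs differed between arrays. The mean of the hybridisation spikes, added in equal amount, was 9.56 and 9.90 in the control group against 10.10 and 10.13 with NeuroD2. Poly-A spikes averaged 6.95 on control replicate 1 and 7.96 to 8.03 on the other 3 arrays. The part of these in the results on receptor genes was not tested.

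None of the receptor genes passed the threshold between vectors. By limma, 0 of the 64 had a Benjamini-Hochberg adjusted p below 0.05 over all genes, where 4.77% of all genes did (328 higher and 536 lower with the NeuroD2 vector). At an unadjusted p below 0.05 there were 6 of 64, which is 9.38% against 21.8% of all genes. These were CHRNA9, GABRA3, CHRNA5 and GABRB1 with a lower mean and GABRG1 and GABRA5 with a higher mean under NeuroD2. The 4 arrays separated by vector without overlap in 25 members, or 39.1%, against 50.8% of all genes. Differences ran from -0.47 for CHRNA9 to 0.27 for CHRND. Their median was 0.002 over the members and 0 over all genes.

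Most of the receptor genes were read low on the arrays' scale. The mean level of 61 of the 64 lay below the median of all genes, which was 6.56. The exceptions were GLRB at 7.58, GRM4 at 7.01 and CHRNA9 at 6.61. A level on this array mixes the amount of RNA with how well the probes bind, so levels of different genes were not ranked as amounts. No detection calls were used here, and whether a gene read at such a level was transcribed was not determined. Among all genes below the median level, 1.79% passed the adjusted threshold, 12.9% had an unadjusted p below 0.05 and 37% separated without overlap. For the 61 members below that level the corresponding counts were 0, 5 (8.20%) and 24 (39.3%). The members' share without overlap therefore lay close to that of other genes read this low.

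**Figure D1:**
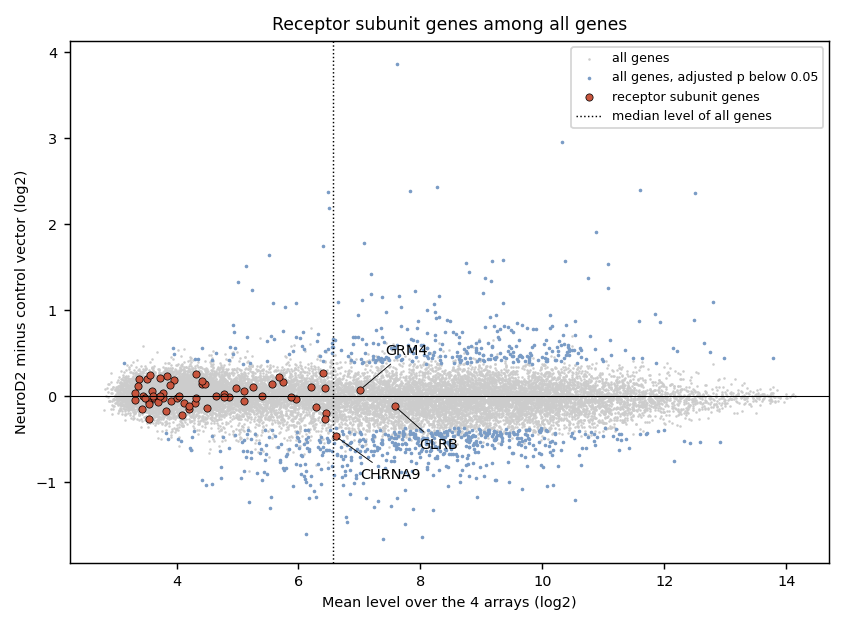
Mean log2 level over the 4 arrays (horizontal) against the difference between NeuroD2 and control vector (vertical, log2) for all 18132 genes, with genes past the adjusted threshold in blue and the 61 receptor subunit genes in red. The dotted line is the median level of all genes, 6.56. The red points lie between -0.47 and 0.27, and all but GLRB, GRM4 and CHRNA9 lie left of the line.

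Intervals of the difference stayed close to 0 for most members, though they were not narrower than those of other genes. The median standard error was 0.093 over the members and 0.086 over all genes. The 95% interval of the difference, taken gene by gene without adjustment, lay within 1 log2 unit of 0 for all 64 members and within 0.5 for 56 of them. Over all genes these intervals lay within 1 for 98.9% and within 0.5 for 82.0%. These intervals bound the change in array signal, not in the amount of RNA. CHRNA9 had the interval that reached farthest from 0, to -0.77. Replicate arrays of the control group differed by a median of 0.13 over the members and those of the NeuroD2 group by 0.09, beside a median absolute difference between the groups of 0.10.

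**Figure D2:**
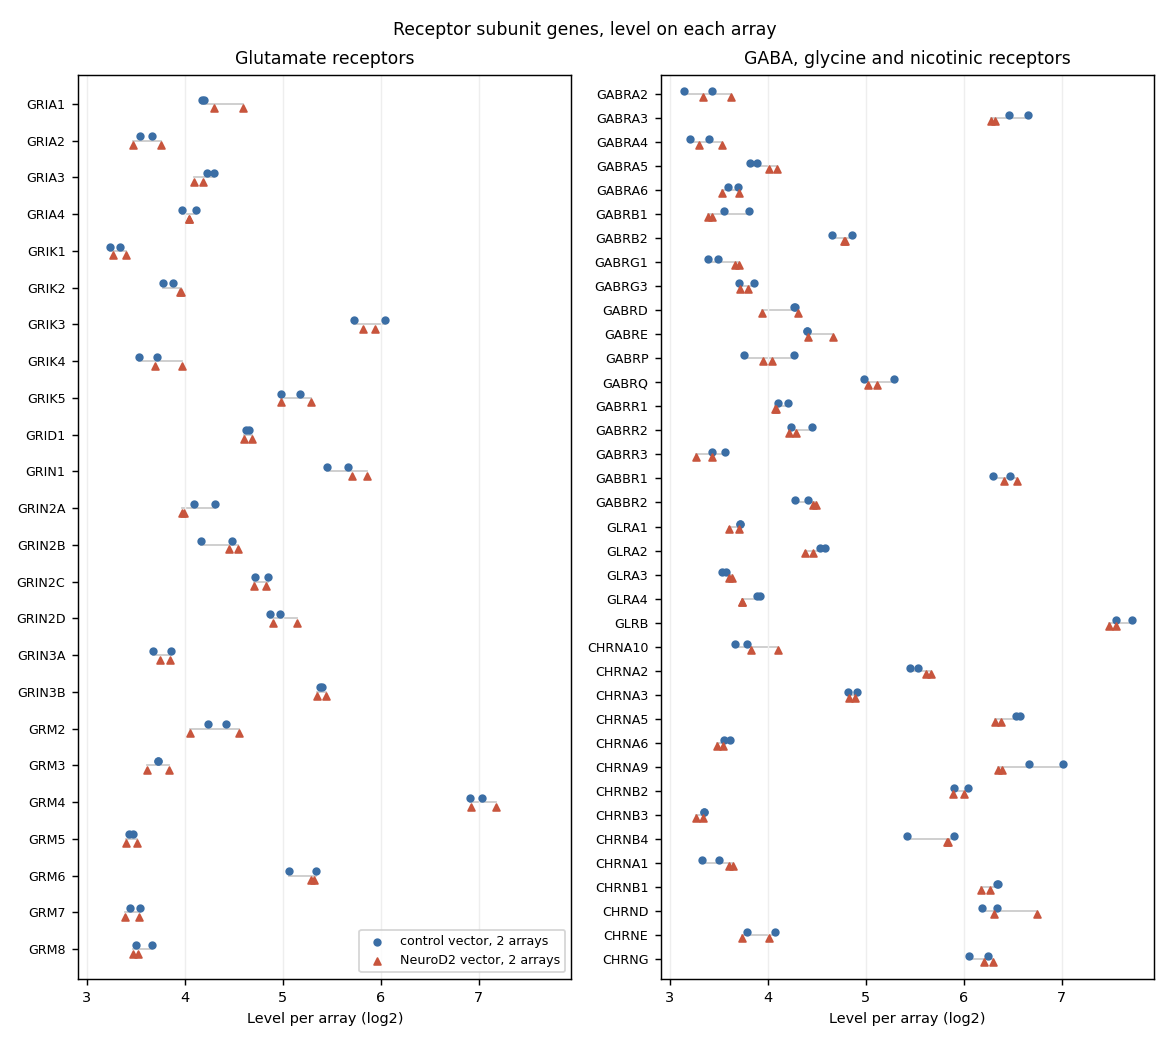
Log2 level of the 61 receptor subunit genes on each array, with circles for the 2 control-vector arrays and triangles for the 2 NeuroD2-vector arrays. Each grey line runs from the lowest to the highest array of a gene. Gene means run from 3.31 to 7.58 with a median of 4.20, and CHRNA9 shows the widest gap between the groups.

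Among the AMPA receptor genes, which encode the channels of fast excitatory transmission, 0 of 4 passed. GRIA1 read 4.20 and 4.18 on the control arrays and 4.30 and 4.59 on the NeuroD2 arrays, a difference of 0.26 (standard error 0.11, limma adjusted p = 0.25). The groups did not overlap on this probe set, yet a second probe set of GRIA1 went the other way, from 4.36 and 4.26 to 4.03 and 4.13 (-0.24). Of the 4 probe sets of GRIA1, 3 had a lower mean with NeuroD2, and 2 of these 3 separated the groups. GRIA3 differed by -0.12. GRIA2, whose subunit makes AMPA receptors nearly impermeable to calcium, read 3.66 and 3.55 with the control vector and 3.47 and 3.75 with NeuroD2. That is a difference of 0.01, with an interval of -0.28 to 0.29.

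Kainate receptor genes (0 of 5 past the threshold) had means slightly higher with NeuroD2 in 4 of 5 on their brightest probe sets. In 3 of these 4 genes (GRIK1, GRIK2 and GRIK4) other probe sets had lower means. GRIK4, which encodes a high-affinity kainate subunit, read 3.72 and 3.53 against 3.70 and 3.97 (difference 0.21, limma adjusted p = 0.387), so its groups overlapped. On its second probe set they did not, and the difference was -0.10. GRIK2, a subunit that can form channels on its own, differed by 0.13, though 3 of its 5 probe sets had a lower mean with NeuroD2. GRIK5 differed by 0.06, and GRIK3 by -0.004 at a mean level of 5.88. The single delta receptor gene analysed here, GRID1, differed by 0.002.

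NMDA receptor genes encode calcium-permeable channels that need glycine or D-serine as co-agonist. Of 7 genes, 0 passed. GRIN1, the subunit that every NMDA receptor contains, read 5.45 and 5.67 with the control vector and 5.86 and 5.71 with NeuroD2 (difference 0.23, standard error 0.10, limma adjusted p = 0.287). GRIN2A, a glutamate-binding subunit of mature synapses, read 4.31 and 4.10 against 3.99 and 3.98 (-0.22, limma adjusted p = 0.246). On these probe sets neither gene's groups overlapped, and the differences had opposite signs. The other probe sets of GRIN1 gave 0.09, 0.01 and 0.09, none with separated groups. On the other probe sets of GRIN2A the difference was 0.03 and 0.07. GRIN2B, a glutamate-binding subunit prominent early in development, read 4.48 and 4.17 against 4.45 and 4.55 (0.17), so the groups overlapped. Its difference was 0.33 with control replicate 1 left out and 0.016 with control replicate 2 left out.

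Of the 7 genes of metabotropic glutamate receptors, 0 passed and in 0 did the groups separate. Their differences ran from -0.09 for GRM8 to 0.10 for GRM6, the receptor of retinal ON bipolar cells. GRM4, a presynaptic receptor that inhibits adenylyl cyclase, read 7.04 and 6.91 with the control vector and 6.93 and 7.18 with NeuroD2. Its difference was 0.08, and its brightest probe set has the suffix x_at, a kind that can match transcripts of other genes. The other 2 probe sets of GRM4 had mean levels of 4.01 and 3.65.

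Of the 16 GABA-A receptor genes, 0 passed and 4 had an unadjusted p below 0.05, 2 in each direction. That is 25%, beside 21.8% of all genes and 12.9% of the genes below the median level, where all 16 lay. The 4 were all among the 9 alpha, beta and gamma genes (44.4%). GABRA3, an alpha subunit that lines the GABA site with a beta subunit, read 6.46 and 6.66 on the control arrays and 6.28 and 6.32 on the NeuroD2 arrays. The difference was -0.26 (standard error 0.09, limma adjusted p = 0.183), and the second probe set of GABRA3 gave -0.36, again without overlap. GABRB1, a beta subunit, read 3.81 and 3.56 against 3.44 and 3.39 (-0.27, limma adjusted p = 0.207). Its second probe set gave -0.40. GABRG1, a gamma subunit of the kind that benzodiazepine sites require, read 3.49 and 3.39 against 3.71 and 3.67 (0.25, limma adjusted p = 0.143). Its second probe set gave 0.04. GABRA5 read 3.83 and 3.90 against 4.01 and 4.10 (0.19, limma adjusted p = 0.228) on its only probe set. The groups were separated in each of these 4 genes, which were picked by their unadjusted p, as they were in 50.8% of all genes.

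Of the less common GABA-A subunits (delta, epsilon, pi, theta and rho), 0 of 7 passed. GABRR3, a rho subunit, differed by -0.15, GABRD by -0.15 and GABRE by 0.14. GABRQ, the theta subunit, had a mean level of 5.10 and differed by -0.06. In GABRD the difference came from NeuroD2 replicate 2, at 3.94 against 4.27 to 4.31 on the other 3 arrays, and it was 0.04 without that array. GABRE read 4.67 on the same array against 4.40 to 4.41 on the other 3, and its difference was 0.014 without it. Each of the 3 probe sets of GABRE had a higher mean with NeuroD2, by 0.10 to 0.32, and 2 of them separated the groups. The products of both GABA-B receptor genes work as a pair, and neither gene passed or kept its sign. GABBR2 differed by 0.14 on its brightest probe set and by -0.19 on the other, each with separated groups. GABBR1 differed by 0.09, with -0.13 and 0.32 on its other probe sets, and by -0.00073 without control replicate 2.

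Glycine receptor genes were 0 of 5 past the threshold, with lower means in 4 of 5. GLRA4 read 3.89 and 3.92 against 3.74 and 3.74 (-0.17, limma adjusted p = 0.25), and GLRA2 differed by -0.13. GLRB encodes the beta subunit that ties glycine receptors to the scaffold protein gephyrin. It read 7.56 and 7.72 with the control vector and 7.56 and 7.48 with NeuroD2 (-0.12, limma adjusted p = 0.516), and the groups overlapped narrowly. Each of its 4 probe sets had a lower mean with NeuroD2, by 0.12 to 0.33 log2 units.

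**Figure D3:**
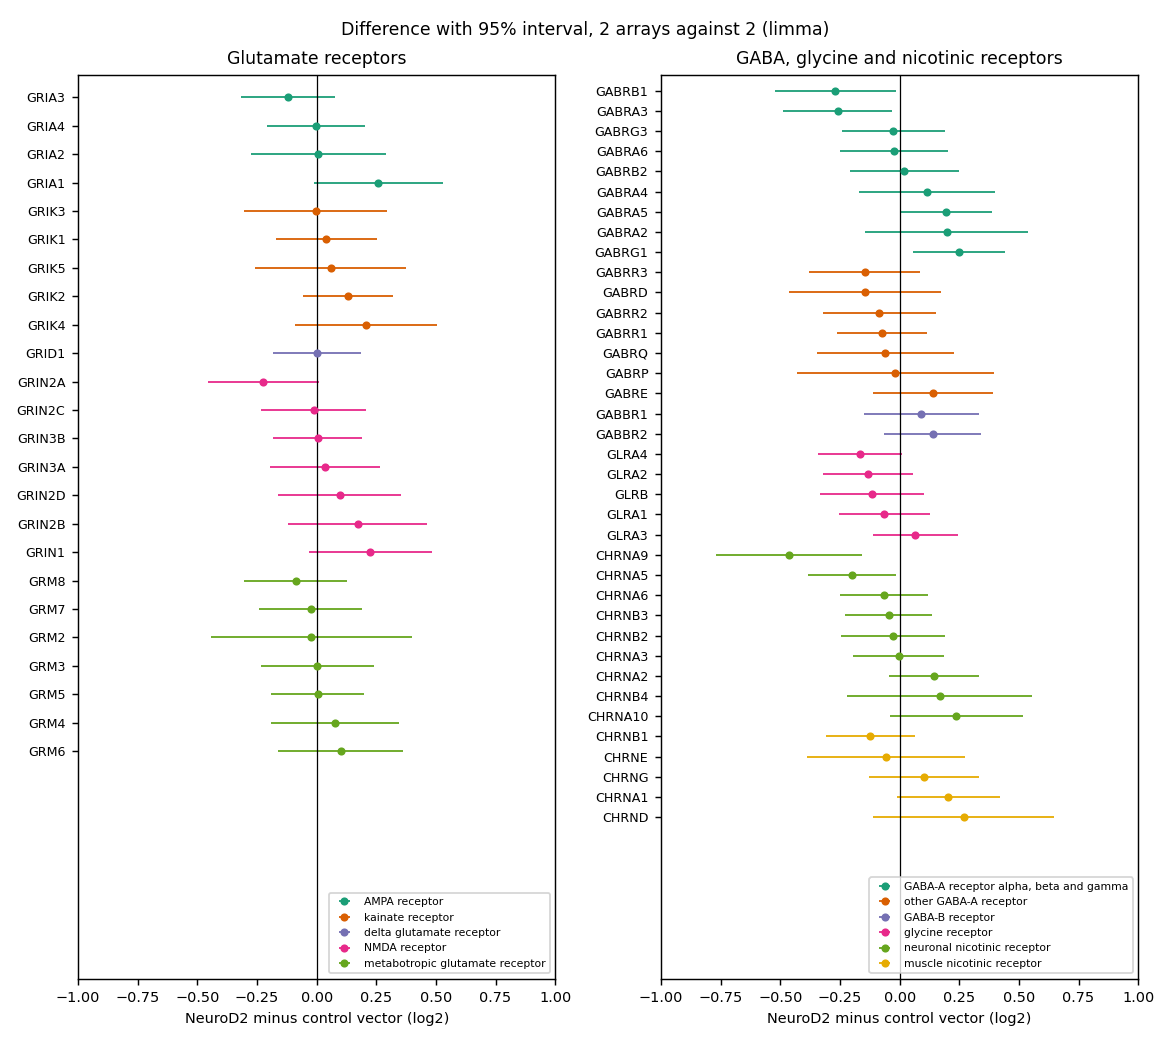
Difference between NeuroD2 and control vector (log2, points) with its 95% interval from limma (bars, 2 arrays against 2) for the 61 receptor subunit genes, coloured by receptor class. All intervals lie between -1 and 1, and that of CHRNA9 reaches farthest, to -0.77.

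Nicotinic receptor genes included the member with the largest difference. CHRNA9 encodes an alpha subunit best known from the hair cells of the inner ear, where it assembles with CHRNA10. It read 7.01 and 6.67 on the control arrays and 6.35 and 6.40 on the NeuroD2 arrays. Both NeuroD2 arrays lay below both control arrays, with a difference of -0.47 (standard error 0.12, 95% interval -0.77 to -0.16, limma adjusted p = 0.1). CHRNA9 has a single probe set. Leaving out control replicate 1, the array with the low poly-A spikes, gave -0.29, and leaving out control replicate 2 gave -0.64. CHRNA9 passed only when genes below the median level were left out of the test (limma adjusted p = 0.031). That filter used the mean of all 4 arrays, and the CHRNA9 mean of 6.61 lay just above the median of 6.56. Its mean was 6.84 with the control vector and 6.37 with NeuroD2, so it cleared the filter only through the control arrays. This pass is therefore no independent support for a change. CHRNA10 had the opposite sign, reading 3.79 and 3.67 against 3.83 and 4.10 (0.24, limma adjusted p = 0.297).

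Of the 9 neuronal nicotinic genes 0 passed. CHRNA5 encodes an accessory subunit that joins receptors formed by others and read 6.58 and 6.53 against 6.32 and 6.39 (-0.20, limma adjusted p = 0.201). Its second probe set gave -0.07. CHRNA3, which neighbours CHRNA5 in the RefSeq annotation, differed by -0.005 on its brightest probe set. Its other probe sets gave 0.24, 0.09 and -0.04, and 2 of them separated the groups, both higher with NeuroD2. The next gene, CHRNB4, differed by 0.17, and by -0.06 on its second probe set. Among the 5 muscle-type genes 0 passed as well. CHRND, the delta subunit, read 6.34 and 6.19 against 6.31 and 6.75 (0.27, standard error 0.15, limma adjusted p = 0.382), with NeuroD2 replicate 2 above the other 3 arrays and a difference of 0.05 without it. Each of the 6 probe sets of CHRND had a higher mean with NeuroD2, by 0.04 to 0.27, and 3 of them separated the groups. CHRNA1, the alpha subunit of the endplate receptor, differed by 0.20, with both of its probe sets separated by vector, and CHRNB1 by -0.12.

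Several receptor genes lie side by side in the genome, and 11 pairs of members were direct neighbours among the protein-coding genes of the RefSeq table of GRCh38.p14. On the brightest probe set of each gene, the differences had the same sign in 6 pairs and the opposite sign in 5. On chromosome 4, GABRG1 (0.25) and GABRA2 (0.20) shared a sign, while GABRA4 (0.11) and GABRB1 (-0.27) did not. CHRND (0.27) and CHRNG (0.10) on chromosome 2 also shared a sign. None of these genes passed the threshold.

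Promoters are shown for the members with an unadjusted p below 0.05, so that the E-boxes near their starts can be seen beside the values above. RefSeq promoter sequences (build GRCh38.p14, from 250 bases before the gene's start to 50 after, 300 bases) were found for 3 of the 6. They are those of CHRNA9 (chr4:40335083-40335382, plus strand), GABRG1 (chr4:46124005-46124304, minus strand) and GABRB1 (chr4:47031317-47031616, plus strand). Capitals mark the E-box CANNTG, which reads the same on both strands.
CHRNA9: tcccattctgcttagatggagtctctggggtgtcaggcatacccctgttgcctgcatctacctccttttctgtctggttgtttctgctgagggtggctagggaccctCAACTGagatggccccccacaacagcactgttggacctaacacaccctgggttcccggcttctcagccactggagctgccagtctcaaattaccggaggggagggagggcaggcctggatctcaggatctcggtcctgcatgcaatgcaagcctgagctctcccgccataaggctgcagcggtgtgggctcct
GABRG1: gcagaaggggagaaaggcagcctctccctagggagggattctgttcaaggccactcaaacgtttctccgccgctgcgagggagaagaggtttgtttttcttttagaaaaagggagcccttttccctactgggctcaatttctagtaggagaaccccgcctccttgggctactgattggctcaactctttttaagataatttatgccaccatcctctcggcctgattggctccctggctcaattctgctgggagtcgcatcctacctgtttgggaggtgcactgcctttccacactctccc
GABRB1: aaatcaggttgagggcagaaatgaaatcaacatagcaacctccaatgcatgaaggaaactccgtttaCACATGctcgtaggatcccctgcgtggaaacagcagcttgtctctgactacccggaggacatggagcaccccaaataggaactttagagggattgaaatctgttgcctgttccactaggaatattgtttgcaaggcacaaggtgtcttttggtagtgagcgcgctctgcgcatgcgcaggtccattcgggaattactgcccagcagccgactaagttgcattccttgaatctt
The CHRNA9 promoter held 1 E-box, CAACTG, whose first base lies at -143 from the start. That of GABRB1 held 1, CACATG, at -183, and that of GABRG1 held 0. Of 50 members with a promoter sequence, 33 (66.0%) held CANNTG, as did 68.9% of all 27305 promoters of that length. The narrower forms CAGATG and CAGCTG, searched on both strands and both contained in CANNTG, were in 10.0% and 18.0% of member promoters and in 14.8% and 17.7% of all. A match is a description of the letters and not a binding site.

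The genes around these receptors gave 8 changes among 95 measured members of 7 lists, 2 higher and 6 lower with NeuroD2. That is 8.42%, beside 4.77% of all genes, while 23.2% of these 95 genes and 21.8% of all genes had an unadjusted p below 0.05. RGS4, a regulator that shortens signalling of receptors coupled to Gq and Gi proteins, read 9.67 and 9.76 with the control vector and 8.70 and 8.78 with NeuroD2. It fell by 0.97 on the log2 scale (standard error 0.08, limma adjusted p = 0.0068), which is 1.96-fold. GNAQ, the G protein alpha subunit downstream of group I metabotropic receptors, read 9.56 and 9.61 against 10.01 and 9.94 and rose by 0.39 (limma adjusted p = 0.0463), and it did not pass in 6 of the 12 alternative settings. The other 8 of 10 measured genes of metabotropic coupling did not pass.

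Of 12 chaperones and partners of nicotinic receptors, 2 fell. LYPD1, a membrane-anchored modulator of nicotinic receptors, read 7.34 and 7.16 against 6.55 and 6.67 (-0.64, limma adjusted p = 0.0279). TMEM35A, the chaperone also called NACHO that helps nicotinic receptors assemble, read 7.61 and 7.64 against 7.20 and 7.03 (-0.51, limma adjusted p = 0.0377). Of 17 transmitter transporters, SLC1A1 (-0.48) and SLC1A3 (-0.41), which take up glutamate, fell, and SLC7A11, which exports glutamate in exchange for cystine, rose by 0.42 (limma adjusted p from 0.0409 to 0.0457). With the mean of its probe sets SLC1A3 did not pass (-0.15, limma adjusted p = 0.303). With every probe set tested on its own SLC1A1, SLC1A3, SLC7A11 and GNAQ did not pass (limma adjusted p from 0.0549 to 0.0639). SHMT1, which interconverts serine and glycine, fell by 0.52 and was the only gene to pass among 12 transmitter enzymes (limma adjusted p = 0.0247).

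**Figure D4:**
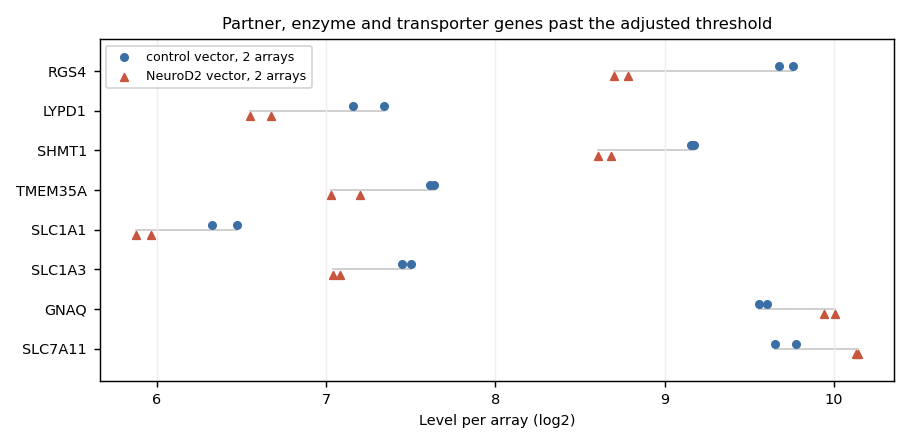
Log2 level on each array of the 8 partner, enzyme and transporter genes past the adjusted threshold, with circles for the control vector and triangles for the NeuroD2 vector (2 arrays each). In each of the 8, which were picked by their adjusted p, the groups do not overlap, as in 50.8% of all genes. RGS4 shows the widest separation.

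No gene passed among 17 auxiliary subunits of glutamate receptors, 14 anchoring proteins of glutamate receptors or 13 partners of GABA and glycine receptors. In these lists 4, 4 and 3 genes had an unadjusted p below 0.05 by limma (23.5%, 28.6% and 23.1%), near the 21.8% of all genes. The nearest to the threshold was CNIH3, an AMPA receptor auxiliary subunit named after its value was seen, at 9.66 and 9.50 against 9.12 and 9.17 (-0.43, limma adjusted p = 0.0502). Most of the 8 calls were lost with any array left out. Without control replicate 1, control replicate 2 or NeuroD2 replicate 1 there were 0. Without NeuroD2 replicate 2 there was 1, RGS4 (limma adjusted p = 0.0492). The differences themselves stayed near their size, at -1.02 to -0.93 for RGS4, -0.73 to -0.55 for LYPD1, -0.56 to -0.48 for SHMT1 and 0.36 to 0.42 for GNAQ. In these fits, in the same order, the count over all genes was 0, 0, 57 and 66. With an intensity trend in limma 17 partner genes passed, and 0 receptor genes.

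Different probe sets of a receptor gene often disagreed in sign. The members were covered by 151 probe sets, and 47 genes had more than 1. In 20 of these 47 every probe set had a mean difference of the same sign. In 3 every probe set also separated the groups: GABRA3 and GABRB1 lower and CHRNA1 higher with NeuroD2. In 6 genes (GABBR2, GABRR1, GLRA3, GRIA1, GRIA3 and GRM5) different probe sets separated the groups in opposite directions. Shares over all genes are not given here for these counts of sign and separation. Tested on their own among all probe sets, 0 of the 151 passed limma's adjusted threshold, where 1361 of all 44988 did. The lowest adjusted p of the 151 was 0.1. At an unadjusted p below 0.05 by limma there were 12, or 7.95%, against 19.9% of all probe sets.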

How the data were processed

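RNA of 4 samples was measured on 1-colour Affymetrix PrimeView arrays with a biotin label, per the labels' protocols. The deposited table holds log2 levels of 49395 probe sets; the scale is read from the values (2.65 to 14.3, array medians 5.98 to 5.99). The software, background correction and normalization that the authors used are not stated in the labels or file header. Only the 44988 probe sets with 1 gene symbol in the platform annotation were used, 1 for each gene (that of highest 4-array mean). The 2 vectors were set against each other in limma 3.58.1 (lmFit, then eBayes without trend, two-sided) in R 4.3.3, on 2 residual and 3.84 prior degrees of freedom, with Benjamini-Hochberg adjustment over 18132 genes. The fit was tested on simulated data. An exact permutation test of 2 against 2 cannot reach 0.05. Members and lists were chosen with earlier results of these data known. The text names NEUROD2, the members with the largest absolute difference (up to 3) and the highest mean level in each class, and partner genes past the threshold (up to 6 a list); other members are named as examples chosen after their values were seen. No scan date was used, so no array batch was tested. Precision is limited by the number of arrays.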

Additional observations from a re-analysis of the deposited data

How the results depend on the processing

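The replicate number marks no shared culture or day in the labels, and deviations of same-numbered arrays correlated at 0.08 across genes. With the replicate number as a block, 335 of all genes, 1 partner gene (RGS4) and 0 receptor genes passed. Leaving out each array in turn gave 0 to 66 genes in all, 0 to 1 partner genes and 0 receptor genes; the lone array of a group was then assumed to vary like the other group. NEUROD2 differed by 1.97 to 2.42 in these fits. All genes past the threshold numbered 2056 with an intensity trend, 2081 when dim genes were left out (mean under the all-gene median) and 1361 for single probe sets. Partner genes numbered 17 with the trend and 15 without dim genes. That filter left 3 receptor genes, with a median difference of -0.12, and 1 of them (CHRNA9) passed. CHRNA9 cleared the filter only through its control arrays, so the filter was not independent of the difference tested. Of 355 values of the 32 named receptor genes, 335 kept sign and side, 1 passed (CHRNA9 above) and 19 had the opposite sign. The cause was not tested. The replicate block, intensity trend, robust variance prior, level filter and single probe set fits leave each difference as it was. Values from those settings could not change sign, so the count of 335 overstates how stable the signs were. The 19 values with the opposite sign all came from the other settings. These were GRIA2 (-0.013) and GRID1 (-0.012) with quantile normalization, GRIK3 (0.00083) with centring, and GABBR2 (-0.025), GRIA1 (-0.020) and GRIK2 (-0.014) with the mean of probe sets. With an array left out the ranges that crossed 0 were -0.00073 to 0.18 for GABBR1, -0.33 to 0.039 for GABRD, -0.21 to 0.091 for GABRQ, -0.14 to 0.15 for GRIA2, -0.036 to 0.040 for GRID1, -0.097 to 0.21 for GRIK5, -0.16 to 0.15 for GRIK3, -0.033 to 0.23 for GRM6 and -0.051 to 0.20 for GRM4.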

Other observations

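CHRNA7, the subunit of the homomeric alpha7 nicotinic receptor, shares its probe sets with the partly duplicated gene CHRFAM7A, so the 4 probe sets annotated with both symbols entered no comparison. All but the brightest of them lay between 3.48 and 3.87 on every array. The brightest read 5.54 and 5.37 on the control arrays and 5.40 and 5.26 on the NeuroD2 arrays. NeuroD2 minus control differences of the 4 ran from -0.29 to 0.08 on the log2 scale and were not tested. A probe set annotated with GABBR1 and UBD read 3.69 and 3.57 with the control vector and 4.03 and 3.85 with NeuroD2.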
